A study of Saccharomyces cerevisiae with 12 samples.

Results

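The effect of the tup1(S649F) mutation on RNA levels was compared between the 2 haploid mating types of Saccharomyces cerevisiae. The quantity described is the interaction, the log2 change of tup1 against wild type (WT) in MATalpha cells minus the same change in MATa cells. A positive interaction therefore marks a gene whose tup1 effect was more upward in MATalpha. All 12 of the 12 libraries in the series entered the comparison, 3 in each of 4 groups. Of 6219 genes in the count table, 5654 had enough counts to be tested, and 1349 of these (23.9%) had an interaction at an adjusted p under 0.05 in edgeR's quasi-likelihood test with Benjamini-Hochberg adjustment. These 1349 genes were then sorted by the shape of the difference: changed in one mating type only, changed in both but more in one, or changed in opposite directions.

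The groups were tup1(S649F) MATalpha, WT MATalpha, tup1(S649F) MATa and WT MATa, all of W303 background. Each group was a single strain, so whatever else separates the strains cannot be told apart from the mutation. Mutant and wild-type strains alike carried the marker alleles ade2-1, his3-11,15, leu2-3,112, ura3-1, can1-100 and trp1-1. Cells were in log phase (optical density 0.6 to 0.8 at 660 nm) at 30 °C in rich medium with adenine and 2% dextrose, and total RNA depleted of ribosomal RNA was sequenced. The labels do not say that replicates were separate cultures, so each p-value speaks only of the spread between the libraries at hand.

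Tup1 acts with Cyc8 as a corepressor that has no DNA-binding activity of its own and is brought to promoters by repressor proteins. In MATalpha cells the repressor alpha2, bound together with Mcm1 at an operator, uses Tup1-Cyc8 to keep the a-specific genes silent, while MATa cells lack alpha2 and express these genes. Haploid cells of both types share a pheromone pathway in which a receptor, a G protein and a kinase cascade activate Ste12, which binds pheromone response elements upstream of the mating genes. Gcn4 is the activator that raises amino acid biosynthesis genes when amino acids are scarce.

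The mutated gene is TUP1 (YCR084C), and S649F changes a serine codon, within 713, to phenylalanine. The reference sequence around that codon, from RefSeq build R64 on the reverse strand at chrIII:260476-260538, is shown to place the mutation, with the serine codon in capitals.
TUP1 around the mutated codon: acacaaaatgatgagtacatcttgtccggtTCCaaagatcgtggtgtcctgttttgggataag

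The next sequences are stretches of 250 bases upstream of genes that carry the clearest differences, from 350 to 101 bases before the reading frame, read 5′ to 3′ towards the gene in RefSeq build R64. The first 3 belong to a-specific genes, and capitals mark matches, on either strand, to the letters of the alpha2-Mcm1 operator: CATGT, any 2 bases, TT, any base, CC, any 6 bases and GG. In BAR1 2 matches on opposite strands overlap and appear as 1 run.
STE6 at chrXI:46396-46645, reverse strand: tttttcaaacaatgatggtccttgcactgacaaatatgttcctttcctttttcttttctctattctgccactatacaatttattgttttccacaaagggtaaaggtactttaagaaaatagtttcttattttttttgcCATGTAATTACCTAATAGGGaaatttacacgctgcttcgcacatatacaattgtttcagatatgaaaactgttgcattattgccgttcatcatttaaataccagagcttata
MFA2 at chrXIV:352064-352313, forward strand: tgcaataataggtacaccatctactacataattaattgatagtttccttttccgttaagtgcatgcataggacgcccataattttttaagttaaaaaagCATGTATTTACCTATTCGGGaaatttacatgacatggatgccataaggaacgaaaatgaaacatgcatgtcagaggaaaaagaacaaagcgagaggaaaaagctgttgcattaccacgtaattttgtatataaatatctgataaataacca
BAR1 at chrIX:321992-322241, forward strand: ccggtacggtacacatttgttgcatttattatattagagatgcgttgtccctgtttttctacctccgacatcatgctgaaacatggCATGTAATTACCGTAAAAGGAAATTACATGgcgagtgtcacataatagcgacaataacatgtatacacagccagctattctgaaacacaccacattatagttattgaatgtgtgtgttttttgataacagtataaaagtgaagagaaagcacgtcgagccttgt
In FUS1 and PRM1, genes of cell fusion, capitals mark the pheromone response element TGAAACA or its reverse complement.
FUS1 at chrIII:71453-71702, forward strand: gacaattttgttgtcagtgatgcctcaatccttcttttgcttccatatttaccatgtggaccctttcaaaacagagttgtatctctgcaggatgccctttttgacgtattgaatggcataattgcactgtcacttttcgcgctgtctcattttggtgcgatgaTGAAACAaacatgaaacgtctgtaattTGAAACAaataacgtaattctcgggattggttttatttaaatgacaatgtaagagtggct
PRM1 at chrXIV:110567-110816, forward strand: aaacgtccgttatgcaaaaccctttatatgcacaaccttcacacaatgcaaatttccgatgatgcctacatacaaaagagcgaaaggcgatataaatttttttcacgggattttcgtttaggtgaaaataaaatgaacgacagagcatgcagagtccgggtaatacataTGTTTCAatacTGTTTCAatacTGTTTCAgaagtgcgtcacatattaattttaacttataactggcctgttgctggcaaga
In ARG1 and HIS4, genes of amino acid synthesis, capitals mark the Gcn4 letters TGACTC or their reverse complement.
ARG1 at chrXV:218861-219110, forward strand: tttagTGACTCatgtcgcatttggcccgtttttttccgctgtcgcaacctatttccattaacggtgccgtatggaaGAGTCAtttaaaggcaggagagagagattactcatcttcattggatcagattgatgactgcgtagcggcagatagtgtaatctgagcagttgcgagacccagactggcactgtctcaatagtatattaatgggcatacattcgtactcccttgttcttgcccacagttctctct
HIS4 at chrIII:68434-68683, reverse strand: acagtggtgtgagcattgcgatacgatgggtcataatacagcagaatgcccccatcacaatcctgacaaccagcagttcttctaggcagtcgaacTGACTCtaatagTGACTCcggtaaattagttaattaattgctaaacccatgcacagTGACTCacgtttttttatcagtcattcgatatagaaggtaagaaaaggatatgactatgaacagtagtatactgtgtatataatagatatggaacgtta

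The operator letters were found in 5 of 5765 such windows over all protein-coding genes (0.0867%), and these were 5 of the 7 a-specific genes (71.4%). The letters were chosen with the a-specific windows in view, so this share describes the search and is no test. TGAAACA stood in 351 windows (6.09%), in 6 of 7 a-specific genes (85.7%) and in 13 of 24 genes of cell and nuclear fusion (54.2%). TGACTC stood in 419 windows (7.27%), in 10 of 14 arginine genes (71.4%), 23 of 35 genes of other amino acids (65.7%) and 4 of 21 methionine genes (19.0%). A match describes the letters in the window and is not a measured binding site.

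Library totals ran from 5657714 to 9300353 counts. Levels below are CPM, counts scaled to a common library total with TMM factors, given for replicates 1, 2 and 3 in turn. Replicates differed by more than counting error, with a chi-square per degree of freedom between replicate pairs of 7.40 to 12.2 in tup1 MATalpha and 1.40 to 2.68 in WT MATalpha, and 4.08 to 28.3 in tup1 MATa against 1.74 to 2.23 in WT MATa. The highest values came from tup1 MATa replicate 1, which stands apart. Without it 1960 genes had an interaction, which included 1306 of the 1349 (96.8%) with the same sign. The mating type of the WT libraries matched their markers. The 8 a-cell markers summed to 25.1 to 26.3 CPM in WT MATalpha and 1814 to 1883 CPM in WT MATa, and the 5 alpha-cell markers to 2661 to 2928 CPM in WT MATalpha and 42.1 to 47.6 CPM in WT MATa. HMRA1, which marks a cells, had 0 counts in all 6 MATalpha libraries. A count of 0 allows up to 0.439 to 0.549 CPM in a tup1 MATalpha library and 0.295 to 0.445 CPM in a WT MATalpha library, for counting error only. In tup1 MATa HMRA1 stood at 7.85 CPM or more, and in WT MATa at 8.60 to 10.9 CPM. MATALPHA1 stood at 0.549 to 0.973 CPM in the MATalpha libraries and at 0 to 0.164 CPM in the MATa libraries. These ranges do not overlap but rest on a few counts, so the gene carries little weight. The sequences of MATALPHA1 and HMRA1 are both repeated between a silent cassette and the mating-type locus, so the assignment of their reads is uncertain.

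The tup1 mutation changed more genes in MATalpha than in MATa, and the upward differences between the types were larger than the downward ones. In MATalpha 1810 genes rose (32.0%) and 1755 fell (31.0%), 63.1% in all, while in MATa 1395 rose (24.7%) and 947 fell (16.7%), 41.4% in all. The interaction was positive in 701 genes (12.4%) and negative in 648 (11.5%). At least 2-fold differences numbered 174 in the positive direction (3.08%) and 17 in the negative (0.301%), and at least 4-fold ones 65 and 3. Over the 5654 genes the median interaction was −0.03 on the log2 scale, and over the 1349 genes the median size was 0.51. A test against a 1.5-fold difference in place of 0 kept 139 positive and 8 negative genes. Both effects enter the interaction, so its value and its shape come from the same libraries and are not separate evidence.

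**Figure D1:**
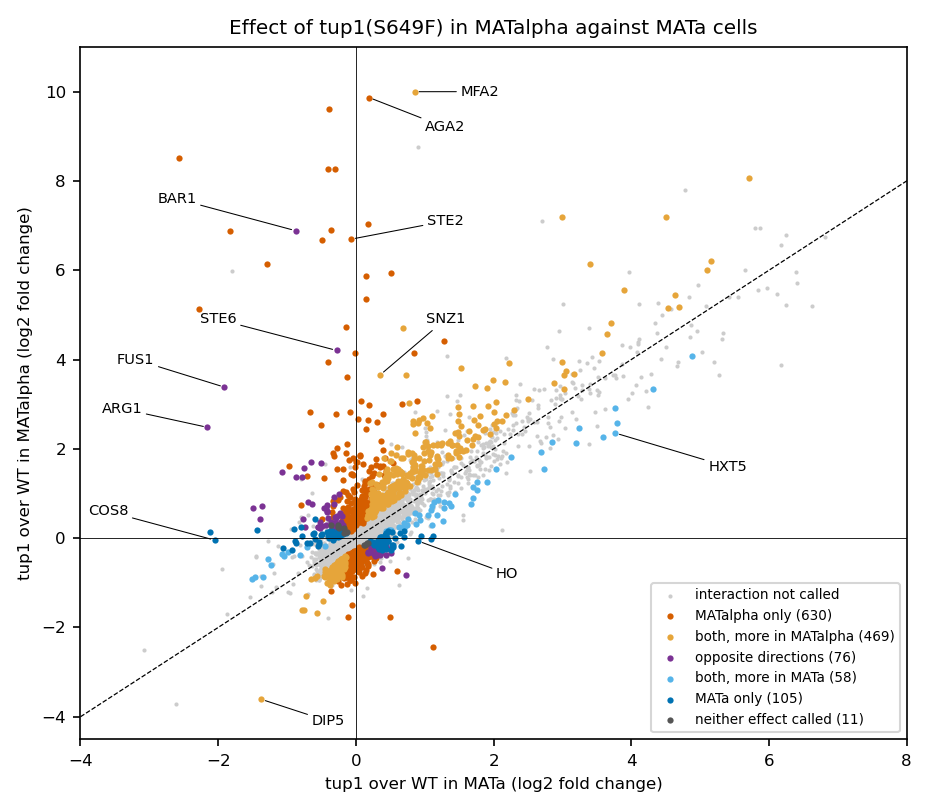
Each point is 1 of the 5654 genes, with its log2 change of tup1 over WT in MATa cells on the x axis and in MATalpha cells on the y axis. Coloured points are the 1349 genes with an interaction, by shape, and the dashed diagonal marks equal effects. The widest departures lie far above the diagonal, where AGA2 and MFA2 rose in MATalpha by 9.87 to 10.00.

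By shape, the largest class changed in MATalpha only. It held 630 genes (11.1% of the genes tested), of which 274 rose and 356 fell. A further 469 genes (8.3%) changed in both types in the same direction and more in MATalpha, 306 higher and 163 lower. Opposite directions were seen in 76 genes (1.34%), of which 51 were higher in MATalpha and lower in MATa and 25 the reverse. Changes in both types that were larger in MATa numbered 58 (1.03%), 47 higher and 11 lower. Changes in MATa only numbered 105 (1.86%), 53 higher and 52 lower, and in 11 genes (0.195%) neither effect was called. The 94 MATalpha-only genes with a difference of at least 2-fold were 88 risers and 6 fallers, and the 26 such opposite genes were 24 higher and 2 lower in MATalpha.

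A call in one type and none in the other leaves room for a smaller change in the second. In 558 of the 630 MATalpha-only genes (88.6%) the 95% interval of the MATa effect lay within a 1.5-fold change either way, and the same held for the MATalpha effect in 100 of the 105 MATa-only genes (95.2%). Taking out each of the 12 libraries in turn, 315 of the 630 MATalpha-only genes, 237 of the 469 larger in MATalpha, 38 of the 76 opposite, 25 of the 58 larger in MATa and 44 of the 105 MATa-only genes kept their shape every time. Without tup1 MATa replicate 1 the numbers that kept it were 539, 390, 69, 55 and 90 in the same order of shapes.

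**Figure D2:**
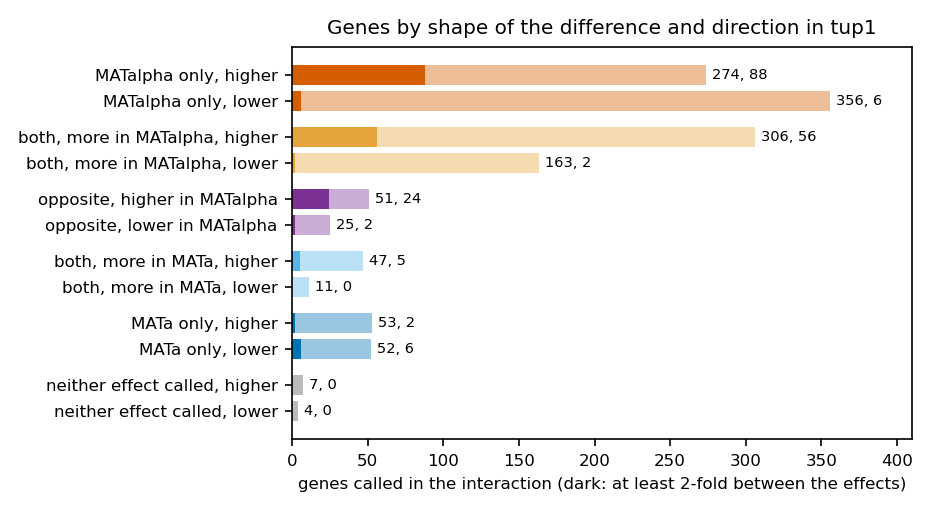
Bars give the number of genes with an interaction in each shape and direction, and the darker part those that differed at least 2-fold. The MATalpha-only bars (274 higher, 356 lower) and the bars for both types, more in MATalpha (306 higher, 163 lower), are the tallest, and the darker parts are mostly on the higher side.

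The same interaction can arise from a difference between the types that exists in tup1 and not in WT, or the reverse. WT MATalpha and WT MATa differed in 51 genes (0.902%), and tup1 MATalpha and tup1 MATa in 1981 (35.0%). Of the 1349 genes, 1156 differed between the types in tup1 only, 20 in WT only, 18 in both and 155 in neither. Genes that differed in WT only include MFA2 (MATalpha over MATa 0.20 in tup1 and −8.94 in WT) and STE2 (−0.03 in tup1 and −6.79 in WT). In bulk samples a change in the share of cells that express a gene and a change in RNA per cell cannot be told apart, which holds for every difference given here.

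All 7 a-specific genes had a positive interaction, with a median of 7.76 against −0.03 over all genes tested. All 7 rose in tup1 MATalpha. In MATa 1 rose and 2 fell. By shape 4 changed in MATalpha only, 1 changed in both and 2 changed in opposite directions. Among all genes tested 12.4% had a positive interaction, 32.0% rose in MATalpha, and 24.7% rose and 16.7% fell in MATa. In summed level, the 8 a-cell markers reached 1819 to 2687 CPM in tup1 MATalpha, against 25.1 to 26.3 CPM in WT MATalpha, and 1734 to 1900 CPM in tup1 MATa, against 1814 to 1883 CPM in WT MATa. The MATa marker HMRA1, counted among the 8, stayed at 0 counts in tup1 MATalpha.

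STE2 (YFL026W, chromosome VI 82580 to 83875) encodes the receptor for alpha-factor. It had 701, 472 and 551 CPM in tup1 MATalpha, against 5.90, 5.33 and 5.19 in WT MATalpha, and 656, 569 and 530.3 in tup1 MATa, against 609, 597 and 632 in WT MATa. The 3 WT MATalpha libraries lay far below the other 9, and the tup1 MATalpha range overlapped both MATa groups. The interaction was 6.76 ± 0.22 SE, adjusted p = 1.42e-13, made of a MATalpha effect of 6.70 ± 0.19 SE, adjusted p = 4.04e-16 and a MATa effect of −0.07 ± 0.11 SE, adjusted p = 0.664. MFA2 (YNL145W, chromosome XIV 352414 to 352530) encodes the mating pheromone a-factor. It had 804, 529 and 636 CPM in tup1 MATalpha, against 0.688, 0.421 and 0.742 in WT MATalpha, and 516, 632 and 564 in tup1 MATa, against 323, 302 and 319 in WT MATa. Every tup1 library lay above every WT library, by a wide margin in MATalpha and a narrow one in MATa. The interaction was 9.14 ± 0.51 SE, adjusted p = 5.71e-13, with a MATa effect of 0.86 ± 0.11 SE, adjusted p = 1.11e-05.

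AGA2 (YGL032C, chromosome VII 436570 to 436833), the adhesion subunit of a-agglutinin, had 265, 168 and 199.8 CPM in tup1 MATalpha, against 0.197, 0 and 0.445 in WT MATalpha, and 38.5, 35.8 and 30.6 in tup1 MATa, against 31.1, 25.8 and 35.1 in WT MATa. WT MATalpha was at or near 0 and tup1 MATalpha exceeded both MATa groups, which overlapped. Its interaction was 9.67 ± 1.19 SE, adjusted p = 1.55e-08. MFA1, the second a-factor gene, and ASG7, an a-specific gene, had 3 or fewer counts over the WT MATalpha group, so no fitted interaction is given. MFA1 had 2019 counts over tup1 MATalpha and 3 over WT MATalpha, a scaled ratio of 876 (exact 95% interval 299 to 4252, counting error only), and 587 over tup1 MATa against 859 over WT MATa, a ratio of 0.761 (0.684 to 0.846). ASG7 had 242 counts over tup1 MATalpha and 2 over WT MATalpha, a ratio of 158 (43.1 to 1308), and 88 over tup1 MATa against 86 over WT MATa, a ratio of 1.14 (0.837 to 1.55).

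The other 2 a-specific genes changed in opposite directions. BAR1 (YIL015W, chromosome IX 322342 to 324105) encodes the secreted protease that degrades alpha-factor. It had 439, 289 and 371 CPM in tup1 MATalpha, against 3.24, 2.94 and 2.97 in WT MATalpha, and 191, 165 and 143 in tup1 MATa, against 309, 302 and 306 in WT MATa. In MATa all 3 tup1 libraries were below all 3 WT libraries. The interaction was 7.76 ± 0.30 SE, adjusted p = 1.94e-11, with 6.89 ± 0.28 SE, adjusted p = 4.16e-13 in MATalpha and −0.88 ± 0.12 SE, adjusted p = 5.18e-05 in MATa. STE6 (YKL209C, chromosome XI 42423 to 46295), the a-factor exporter, had 324, 260.2 and 300.3 CPM in tup1 MATalpha, against 14.8, 16.4 and 16.9 in WT MATalpha, and 462, 428 and 419.5 in tup1 MATa, against 513, 539 and 539 in WT MATa. Its MATa groups did not overlap either, with tup1 the lower, and its level in tup1 MATalpha stayed below tup1 MATa (−0.57 ± 0.08 SE, adjusted p = 9.01e-06). The interaction was 4.48 ± 0.12 SE, adjusted p = 3.79e-15, with a MATa effect of −0.28 ± 0.07 SE, adjusted p = 0.00513.

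The alpha-specific genes differed less. Of 5 genes 2 had a positive interaction (40%, against 12.4% over all genes) and none a negative one, with a median of 1.53. SAG1 (YJR004C, chromosome X 442909 to 444861), which encodes alpha-agglutinin, had 6341, 4206 and 5339 CPM in tup1 MATalpha, against 624, 641 and 735 in WT MATalpha, and 45.9, 50.8 and 49.4 in tup1 MATa, against 44.7, 40.1 and 42.7 in WT MATa. The tup1 MATalpha libraries were all far above WT MATalpha, and the MATa groups, where the gene is low, did not overlap by a small margin. The interaction was 2.79 ± 0.18 SE, adjusted p = 1.93e-09, with a MATa effect of 0.20 ± 0.14 SE, adjusted p = 0.27. STE3, the receptor for a-factor, had 919.8, 706 and 766 CPM in tup1 MATalpha, against 456, 481 and 499.5 in WT MATalpha, and 0.681, 1.47 and 0.782 in tup1 MATa, against 2.27, 1.38 and 1.25 in WT MATa, and an interaction of 1.53 ± 0.43 SE, adjusted p = 0.0119. Its MATa levels rest on a few counts, and the interaction was not called without replicate 1 of tup1 MATa or replicate 1 of WT MATa (adjusted p = 0.0533 to 0.0811). MF(ALPHA)2, an alpha-factor gene, rose in MATalpha (1.32 ± 0.11 SE, adjusted p = 1.07e-08), but its interaction of 2.12 ± 0.97 SE, adjusted p = 0.0987 did not pass. It passed without replicate 2 of tup1 MATalpha (adjusted p = 0.0221). MF(ALPHA)1, the other alpha-factor gene, had 1284, 803 and 1071 CPM in tup1 MATalpha, against 932, 929 and 939 in WT MATalpha, so these groups overlapped. In MATa it had 1.09, 0 and 0.130 CPM in tup1, against 0, 0.251 and 0 in WT. Its fitted interaction was negative and not called, and is not given because the MATa levels rest on so few counts. AFB1, which encodes a protein that blocks a-factor, did not pass in either effect or in the interaction (−0.22 ± 0.16 SE, adjusted p = 0.313), but its MATa effect of 0.28 was called higher without replicate 1 of tup1 MATalpha or replicate 1 of tup1 MATa (adjusted p = 0.0112 to 0.0496).

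Genes of cell and nuclear fusion, the late steps of mating, moved almost uniformly in MATalpha. Of 24 genes 23 had a positive interaction and 0 a negative one, with a median of 2.25, and the exception was PRM9 at 0.05, a gene named after its value was seen. All 24 rose in MATalpha with a median effect of 2.32, while in MATa 7 rose and 2 fell with a median of −0.07. By shape 15 changed in MATalpha only, 6 changed in both and more in MATalpha, and 2 changed in opposite directions. The count of 23 was the same in every alternative in which the lists were recounted. For comparison, 12.4% of all genes had a positive interaction, 32.0% rose in MATalpha, and 24.7% rose and 16.7% fell in MATa.

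FUS1 (YCL027W, chromosome III 71803 to 73341), a membrane protein of the cell fusion site, had 209, 123 and 163 CPM in tup1 MATalpha, against 18.0, 10.9 and 17.8 in WT MATalpha, and 2.59, 2.45 and 4.04 in tup1 MATa, against 12.3, 11.2 and 11.2 in WT MATa. The tup1 MATalpha libraries exceeded all others and the tup1 MATa libraries were below all WT MATa ones. The interaction was 5.29 ± 0.47 SE, adjusted p = 3.65e-06, with 3.38 ± 0.22 SE, adjusted p = 1.84e-08 in MATalpha and −1.91 ± 0.42 SE, adjusted p = 0.00174 in MATa. PRM1 (YNL279W, chromosome XIV 110917 to 112902), which acts in plasma membrane fusion, had 519, 322 and 422 CPM in tup1 MATalpha, against 2.95, 4.35 and 3.41 in WT MATalpha, and 2.59, 2.94 and 2.09 in tup1 MATa, against 2.99, 2.76 and 4.02 in WT MATa. Outside tup1 MATalpha the levels were low, and the tup1 MATa and WT MATa ranges overlapped. Its interaction was 7.26 ± 0.53 SE, adjusted p = 1.04e-06, with a MATa effect of −0.36 ± 0.45 SE, adjusted p = 0.55.

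The MATalpha-only risers with the largest differences included 3 more fusion genes. FIG1, a membrane protein needed for calcium entry during mating, had an interaction of 8.59 ± 1.45 SE, adjusted p = 0.0023. PRM3, which acts in nuclear envelope fusion, had 7.44 ± 0.98 SE, adjusted p = 5.07e-06, and PRM2 had 7.17 ± 0.86 SE, adjusted p = 1.81e-05. FIG1 had 233, 144 and 182 CPM in tup1 MATalpha, against 0.590, 0.841 and 0.297 in WT MATalpha, and 0.272, 0 and 0.391 in tup1 MATa, against 0.239, 0.377 and 0.277 in WT MATa. The MATa and WT levels of these 3 genes are close to the level that a single library can detect, which shows in the standard errors. Their MATa effects, none called, were −0.31 (adjusted p = 0.868) in FIG1, −1.29 (adjusted p = 0.147) in PRM3 and −0.49 (adjusted p = 0.602) in PRM2. These enter the interactions, and at such levels a fall in MATa cannot be told from no change. PRM6 had 395 counts over tup1 MATalpha and 1 over WT MATalpha, a ratio of 514 (exact 95% interval 91.8 to 20360.0), and in MATa 0 counts over tup1 and 2 over WT, so no ratio is given there.

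The signalling part of the pheromone pathway was mixed. Of 18 genes 4 had a positive and 3 a negative interaction (median 0.11), 38.9% called against 23.9% over all genes. FUS3, the mating MAP kinase, had 197, 136 and 164 CPM in tup1 MATalpha, against 69.2, 67.3 and 65.9 in WT MATalpha, and 60.4, 73.6 and 66.5 in tup1 MATa, against 62.8, 59.0 and 60.2 in WT MATa. All 3 tup1 MATalpha libraries were above the rest, with an interaction of 1.15 ± 0.15 SE, adjusted p = 3e-05 and a MATa effect of 0.14 ± 0.11 SE, adjusted p = 0.346. FAR1, which arrests cells in G1 in response to pheromone, had 398, 268 and 382 CPM in tup1 MATalpha, against 167, 155 and 163 in WT MATalpha, and 163, 159 and 149 in tup1 MATa, against 165, 157 and 159.6 in WT MATa, and the same pattern gave an interaction of 1.14 ± 0.15 SE, adjusted p = 5.07e-05. GPA1, the alpha subunit of the pheromone G protein, had an interaction of 0.58 ± 0.14 SE, adjusted p = 0.0048 and opposite effects, 0.32 ± 0.09 SE, adjusted p = 0.007 in MATalpha and −0.26 ± 0.10 SE, adjusted p = 0.0409 in MATa. Those effects were small. The MATa effect was not called without replicate 3 of tup1 MATalpha, replicate 2 of WT MATalpha, replicate 1 or 2 of tup1 MATa or replicate 1, 2 or 3 of WT MATa (adjusted p = 0.054 to 0.15), and the MATalpha effect not without replicate 1 of tup1 MATalpha (adjusted p = 0.0614) nor with upper-quartile scaling (0.17, adjusted p = 0.148). MCM1, which encodes the partner of alpha2 and also an activator of mating genes, fell in MATalpha (−0.41 ± 0.09 SE, adjusted p = 0.000443), with an interaction of −0.59 ± 0.12 SE, adjusted p = 0.00149. Its MATa effect of 0.19 was not called with all libraries and was called higher without replicate 1 of tup1 MATa (adjusted p = 0.000425), which makes its shape opposite there.

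Of 8 genes of pheromone feedback 5 had a positive and 2 a negative interaction (median 0.69), 87.5% called against 23.9% over all genes. SST2, which switches the G protein off, changed in opposite directions. It had 583, 354 and 497 CPM in tup1 MATalpha, against 198, 174 and 179 in WT MATalpha, and 90.5, 99.2 and 94.2 in tup1 MATa, against 166, 160.4 and 164 in WT MATa. Neither pair of groups overlapped. The interaction was 2.17 ± 0.19 SE, adjusted p = 2.11e-06, with 1.38 ± 0.13 SE, adjusted p = 3.9e-07 in MATalpha and −0.79 ± 0.14 SE, adjusted p = 0.000321 in MATa. AFR1, which acts in mating projection formation, rose in both types and more in MATalpha, with an interaction of 0.81 ± 0.14 SE, adjusted p = 0.000338. Of 12 haploid-specific genes 4 were positive and 1 negative (median 0.26), 41.7% called against 23.9% over all genes. The lists overlap, so their shares are not separate evidence. All 4 positive ones, GPA1, FUS3, FAR1 and AXL1, are also in the signalling or fusion list, and the negative one, HO, is also an M/G1 gene. GPA1, DIG1 and DIG2 are in both the signalling and feedback lists, and BAR1 in the a-specific and feedback lists. AXL1, the protease that matures a-factor, had an interaction of 0.58 ± 0.11 SE, adjusted p = 0.00064. Its MATalpha effect (0.27 ± 0.08 SE, adjusted p = 0.00439) lost its call under upper-quartile scaling (0.12, adjusted p = 0.178).

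HO (YDL227C, chromosome IV 46271 to 48031), the endonuclease that starts mating-type switching, rose in MATa only. It had 53.8, 73.2 and 65.5 CPM in tup1 MATalpha, against 71.6, 62.8 and 67.7 in WT MATalpha, and 117, 112 and 125 in tup1 MATa, against 66.5, 60.2 and 61.8 in WT MATa. The tup1 MATa libraries exceeded all other libraries, and the MATalpha groups overlapped. The interaction was −0.97 ± 0.13 SE, adjusted p = 1.79e-05, with −0.07 ± 0.09 SE, adjusted p = 0.545 in MATalpha and 0.91 ± 0.09 SE, adjusted p = 4.74e-08 in MATa. With upper-quartile scaling HO was called lower in MATalpha (−0.22, adjusted p = 0.0442), which makes its shape opposite under that setting.

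**Figure D3:**
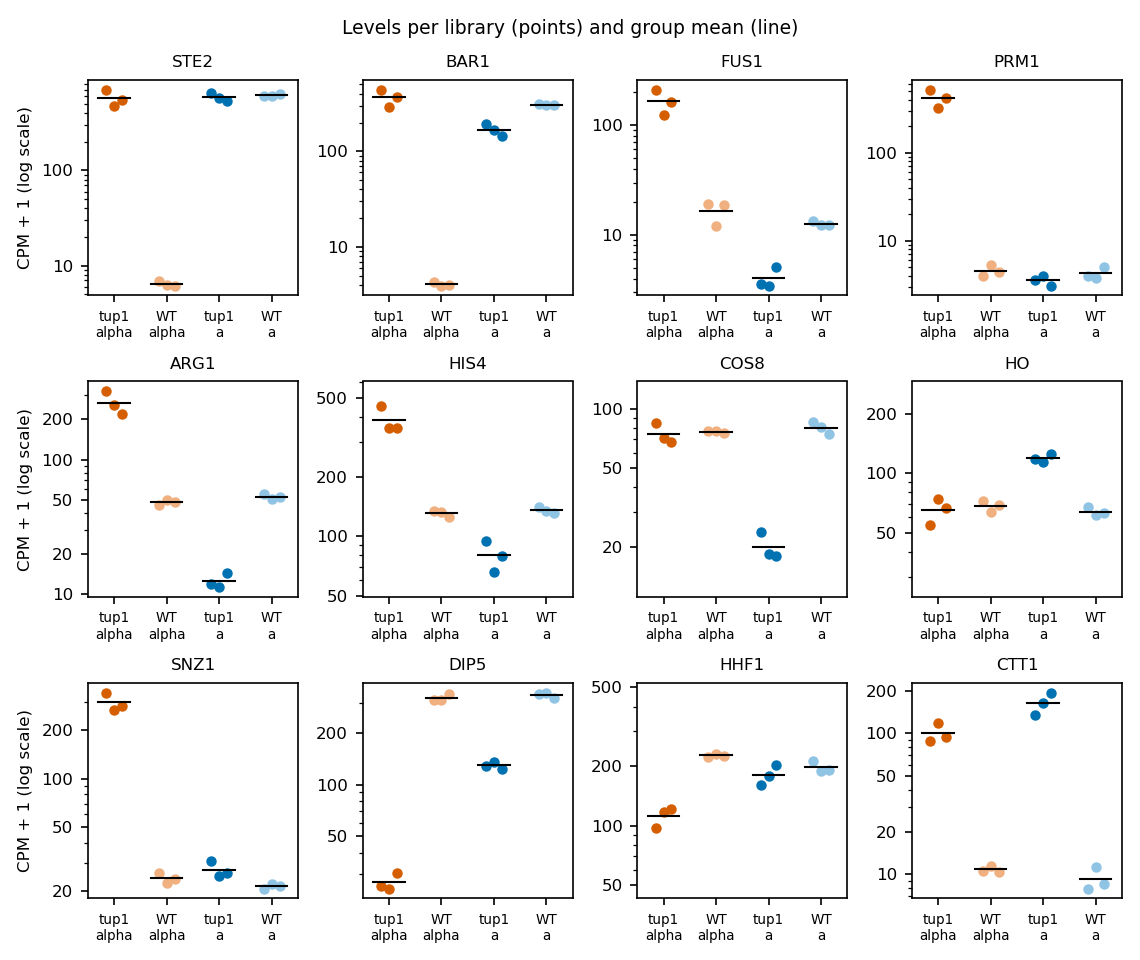
Each panel shows the level of 1 gene in CPM (log axis, 1 CPM added) in every library of tup1 MATalpha, WT MATalpha, tup1 MATa and WT MATa, with a bar at the group mean. The 4 genes of mating, STE2, BAR1, FUS1 and PRM1, are high in tup1 MATalpha and low in WT MATalpha, and ARG1 and HIS4 are lowest in tup1 MATa.

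Genes of amino acid metabolism differed between the types in one direction. The 3 lists, arginine, methionine and other amino acids, hold mostly biosynthesis genes. They also include genes of breakdown (CAR1 and CAR2), uptake (MUP1 and SAM3) and regulation (ARG80, ARG81, MET28, MET32 and GCN4 among them). Over the 3 lists, 53 of 70 genes had a positive interaction and 0 a negative one, against 12.4% and 11.5% of all genes. By type, 32.0% of all genes rose and 31.0% fell in MATalpha, and 24.7% rose and 16.7% fell in MATa. The 3 lists held 23 of the 51 genes that were higher in MATalpha and lower in MATa, and none of the 25 genes of the reverse shape. The 62 tested genes of the mating lists held 6 of the 76 opposite genes. TGACTC stood in the window of 24 of 74 opposite genes (32.4%), against 7.27% of all windows. The share was 16.0% in MATa-only genes, 12.1% in genes larger in MATa, 8.36% in MATalpha-only genes and 7.71% in genes larger in MATalpha. The opposite genes include the 23 from the amino acid lists, so their share is not separate from list membership.

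The arginine genes were the clearest. Of 14 genes 10 had a positive interaction (median 1.10), 11 rose and 1 fell in MATalpha, and 2 rose and 9 fell in MATa, and 8 changed in opposite directions. ARG1 (YOL058W, chromosome XV 219211 to 220473), argininosuccinate synthetase, had 321, 254 and 216 CPM in tup1 MATalpha, against 45.0, 49.2 and 47.6 in WT MATalpha, and 10.9, 10.3 and 13.4 in tup1 MATa, against 54.1, 49.6 and 51.7 in WT MATa. The tup1 MATalpha libraries were above every WT library and the tup1 MATa libraries below every one, while the WT groups lay close together. The interaction was 4.64 ± 0.20 SE, adjusted p = 3.56e-11, with 2.48 ± 0.11 SE, adjusted p = 8.96e-12 in MATalpha and −2.16 ± 0.16 SE, adjusted p = 5.04e-09 in MATa. ARG3, ornithine carbamoyltransferase, had 55.1, 37.1 and 33.9 CPM in tup1 MATalpha, against 14.5, 15.4 and 15.0 in WT MATalpha, and 8.71, 7.52 and 7.95 in tup1 MATa, against 17.4, 16.6 and 16.9 in WT MATa, and an interaction of 2.55 ± 0.23 SE, adjusted p = 2.1e-07. ARG4, argininosuccinate lyase, and ARG5,6, whose product is processed into 2 enzymes of ornithine synthesis, had interactions of 2.37 (adjusted p = 1.94e-11) and 2.25 (adjusted p = 7.75e-10), again from opposite effects. ARG8, a further ornithine enzyme, fell in MATa (−0.80 ± 0.13 SE, adjusted p = 3.5e-05) and had a MATalpha effect of 0.24, with an interaction of 1.05 ± 0.17 SE, adjusted p = 0.000254. Its MATalpha effect passed without replicate 1 or 3 of tup1 MATa (adjusted p = 0.0275 to 0.0277).

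Of 35 genes of other amino acids 29 had a positive interaction (median 0.63). In MATalpha 24 rose and 3 fell, and in MATa 8 rose and 20 fell. HIS4 (YCL030C, chromosome III 65934 to 68333), which encodes several steps of histidine synthesis, had 455, 353 and 349.9 CPM in tup1 MATalpha, against 132, 132 and 124 in WT MATalpha, and 93.8, 64.6 and 78.9 in tup1 MATa, against 139.9, 133 and 130.3 in WT MATa. As in ARG1, tup1 MATalpha was above and tup1 MATa below all WT libraries. The interaction was 2.33 ± 0.16 SE, adjusted p = 6.59e-08, with 1.57 ± 0.11 SE, adjusted p = 4.44e-09 in MATalpha and −0.76 ± 0.12 SE, adjusted p = 7.34e-05 in MATa. ARO4, at the entry to aromatic amino acid synthesis, and HOM3, aspartate kinase, also changed in opposite directions, with interactions of 1.11 (adjusted p = 2.8e-05) and 1.07 (adjusted p = 1.18e-06). LYS1, of lysine synthesis, rose in both types and more in MATalpha (interaction 1.11 ± 0.11 SE, adjusted p = 5.29e-07). LEU1, isopropylmalate isomerase, fell in both and more in MATa. It had 1695, 1254 and 1383 CPM in tup1 MATalpha, against 2193, 2181 and 2186 in WT MATalpha, and 922, 817 and 805 in tup1 MATa, against 2080.4, 1917 and 1987 in WT MATa. Each tup1 group lay below its WT group without overlap, with the lowest levels in tup1 MATa. The interaction was 0.64 ± 0.14 SE, adjusted p = 0.00261, with −0.60 ± 0.10 SE, adjusted p = 3.14e-05 in MATalpha and −1.23 ± 0.10 SE, adjusted p = 3.9e-09 in MATa. LEU2, the next enzyme, had the same shape (interaction 0.67 ± 0.11 SE, adjusted p = 0.000224) in strains that all carry the leu2-3,112 allele.

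Of 21 methionine and sulfur genes 14 had a positive interaction (median 0.71), in a range of 11 without WT MATa replicate 1 to 17 with limma. In MATalpha 10 rose and 4 fell, and in MATa 0 rose and 14 fell. SUL2, a sulfate permease, fell in MATa only. It had 41.4, 22.8 and 23.2 CPM in tup1 MATalpha, against 25.2, 21.3 and 29.1 in WT MATalpha, and 8.98, 6.38 and 7.95 in tup1 MATa, against 22.8, 22.1 and 18.4 in WT MATa. The tup1 MATa libraries lay below the other 9. The interaction was 1.63 ± 0.31 SE, adjusted p = 0.00164, with a MATalpha effect of 0.19 ± 0.19 SE, adjusted p = 0.405. MET5 and MET10, the subunits of sulfite reductase, had interactions of 1.09 ± 0.13 SE, adjusted p = 5.08e-06 and 1.39 ± 0.15 SE, adjusted p = 3.38e-06. MET10 rose in MATalpha and fell in MATa, while the MATalpha effect of MET5 (0.19) passed only without replicate 2 of tup1 MATalpha or replicate 1 of tup1 MATa (adjusted p = 0.0132 to 0.023). MET13, methylenetetrahydrofolate reductase, and STR3, which acts between cysteine and homocysteine, had opposite effects and interactions of 1.25 (adjusted p = 1.47e-07) and 1.20 (adjusted p = 4.32e-06). MET14, adenylylsulfate kinase, fell in both types and more in MATa (interaction 0.71 ± 0.13 SE, adjusted p = 0.000523).

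**Figure D4:**
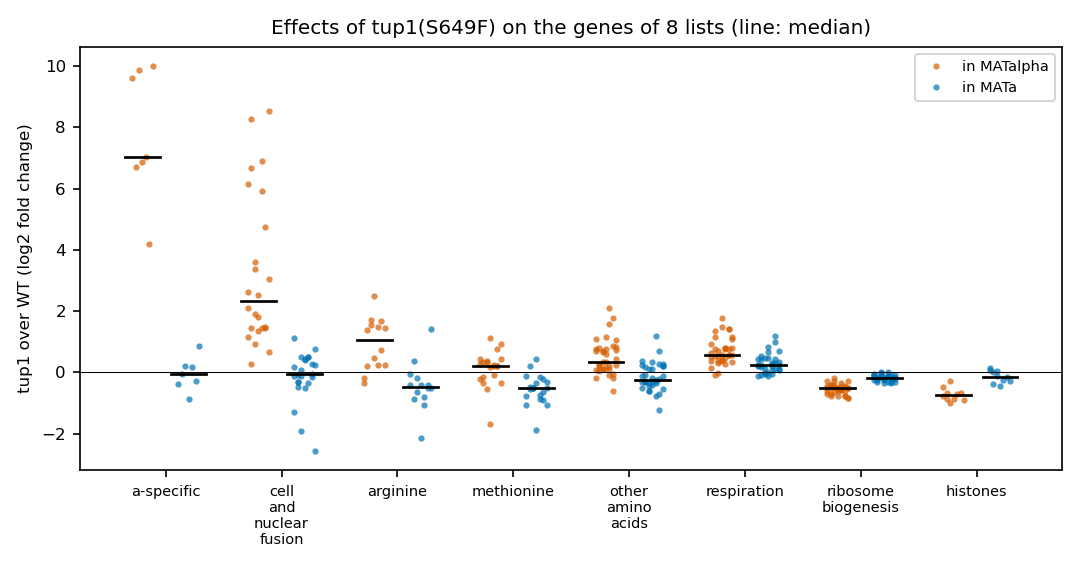
For 8 gene lists, each point is the log2 change of tup1 over WT of 1 gene in MATalpha (left of each pair) or in MATa (right), and a black line marks the list's median. Genes close to 0 counts in a group, MFA1 and ASG7 among them, are drawn at fitted values that rest on few counts. The fusion genes have a median of 2.32 in MATalpha and −0.07 in MATa, the medians of the 3 amino acid lists lie above 0 in MATalpha and below 0 in MATa, and all histone and ribosome biogenesis points lie below 0 in MATalpha.

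Among the named genes of amino acid uptake and breakdown the directions differed. DIP5 (YPL265W, chromosome XVI 41043 to 42869), the permease of acidic amino acids, fell in both types and more in MATalpha. It had 24.5, 23.8 and 29.7 CPM in tup1 MATalpha, against 310.1, 308 and 335 in WT MATalpha, and 128, 134 and 123 in tup1 MATa, against 336, 341 and 319 in WT MATa. The 4 groups fell into 3 separate levels, with tup1 MATalpha lowest, tup1 MATa next and both WT groups highest. The interaction was −2.24 ± 0.11 SE, adjusted p = 1.94e-11, with −3.61 ± 0.08 SE, adjusted p = 1.08e-17 in MATalpha and −1.37 ± 0.07 SE, adjusted p = 2.57e-12 in MATa. CHA1, which breaks down serine and threonine, fell in MATalpha only (interaction −0.98 ± 0.19 SE, adjusted p = 0.0011), and OPT2, an oligopeptide transporter, fell in both and more in MATalpha (interaction −0.82 ± 0.19 SE, adjusted p = 0.00439). AGP3, a permease, fell in both and more in MATa, but its interaction of 0.59 ± 0.21 SE, adjusted p = 0.0444 was not called without replicate 1, 2 or 3 of tup1 MATalpha, replicate 2 or 3 of WT MATalpha, replicate 2 of tup1 MATa or replicate 1, 2 or 3 of WT MATa (adjusted p = 0.0657 to 0.119), nor by DESeq2 (adjusted p = 0.0828), with upper-quartile scaling (adjusted p = 0.0613) or with the replicate block (adjusted p = 0.0572).

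Of 35 respiration genes 32 rose in MATalpha (median effect 0.58) and 21 rose in MATa (median 0.24). A positive interaction was found in 27 and a negative one in 0 (median 0.46), and by shape 16 changed in both types and more in MATalpha and 11 in MATalpha only. The shares over all genes were 12.4% positive and 11.5% negative, with 32.0% higher in MATalpha and 24.7% higher in MATa. CIT1, citrate synthase, had 326, 353 and 342 CPM in tup1 MATalpha, against 131, 132 and 134 in WT MATalpha, and 237, 219 and 239 in tup1 MATa, against 154, 185 and 176 in WT MATa. Tup1 libraries were above WT in both types, and highest in MATalpha. The interaction was 0.93 ± 0.10 SE, adjusted p = 1.44e-06, with 1.37 ± 0.07 SE, adjusted p = 2.09e-12 in MATalpha and 0.43 ± 0.07 SE, adjusted p = 4.06e-05 in MATa. ACO1, aconitase, had an interaction of 0.94 ± 0.13 SE, adjusted p = 4.07e-05, and IDH2, a subunit of isocitrate dehydrogenase, of 0.82 ± 0.10 SE, adjusted p = 1.51e-05. Among 7 tested genes encoded in mitochondria 5 had a positive interaction and none a negative one (median 0.78), against 12.4% and 11.5% over all genes. ATP6 rose in MATalpha (1.05 ± 0.23 SE, adjusted p = 0.00204), with an interaction of 1.24 ± 0.32 SE, adjusted p = 0.0166, and its MATa effect of −0.19 was called lower without replicate 1 of tup1 MATa (adjusted p = 0.0207), which makes its shape opposite there. COX3 rose in MATalpha only (0.91 ± 0.09 SE, adjusted p = 5.36e-08), with an interaction of 0.78 ± 0.13 SE, adjusted p = 0.000231. COX1 shares its span with the reading frames of its introns, so its interaction of 1.02 (adjusted p = 4.33e-06) is uncertain. Mitochondrial ribosomal RNA, which depletion acts on, took 1.32% of counts in tup1 MATalpha and 0.946% in WT MATalpha, and 0.981% in tup1 MATa and 0.822% in WT MATa. Its part in the mitochondrial differences was not tested.

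Of 18 genes of cell wall integrity, which answer to stress on the wall, 16 rose and 1 fell in MATalpha, and 15 rose and 0 fell in MATa. A positive interaction was found in 12 and a negative one in 1 (median 0.65), against 12.4% and 11.5% over all genes. Rises were called in 32.0% of all genes in MATalpha and in 24.7% in MATa. GSC2, an inducible glucan synthase, had 2555, 2324 and 2177 CPM in tup1 MATalpha, against 216, 233 and 239 in WT MATalpha, and 1038, 959 and 899 in tup1 MATa, against 265, 247 and 264 in WT MATa. All tup1 libraries were above all WT ones and tup1 MATalpha was the highest. The interaction was 1.46 ± 0.12 SE, adjusted p = 4.34e-08. PRM5 and YPS3, a cell wall protease, had interactions of 1.39 ± 0.13 SE, adjusted p = 2.98e-07 and 0.93 ± 0.11 SE, adjusted p = 5.08e-06. UTR2, a chitin transglycosylase, was lower in both types and more so in MATalpha (interaction −1.12 ± 0.13 SE, adjusted p = 3.38e-06). General stress genes were less split. Of 24 genes 24 rose in MATalpha and 23 in MATa, and 11 had a positive and 2 a negative interaction (median 0.28). That is 54.2% called against 23.9% over all genes, with 7 positive ones without WT MATa replicate 1. NTH1, neutral trehalase, and GPH1, glycogen phosphorylase, rose in MATalpha by 1.43 and 3.95 and had interactions of 0.83 (adjusted p = 3.88e-05) and 0.95 (adjusted p = 0.000111). CTT1, cytosolic catalase, was a negative one. It had 87.9, 118 and 93.6 CPM in tup1 MATalpha, against 9.64, 10.5 and 9.35 in WT MATalpha, and 134, 164 and 193 in tup1 MATa, against 6.93, 10.3 and 7.49 in WT MATa, and rose in both types, by 3.35 in MATalpha and 4.31 in MATa. Its interaction of −0.96 ± 0.28 SE, adjusted p = 0.0212 was not called without replicate 1 of WT MATa (adjusted p = 0.0602).

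Among the genes with larger increases in MATalpha were neighbours of vitamin B6 synthesis. SNZ1 (YMR096W, chromosome XIII 458408 to 459301) had 339, 265 and 282 CPM in tup1 MATalpha, against 25.2, 21.4 and 23.0 in WT MATalpha, and 29.8, 23.9 and 25.0 in tup1 MATa, against 19.8, 21.2 and 20.7 in WT MATa. The tup1 MATalpha libraries lay far above all others. The interaction was 3.30 ± 0.16 SE, adjusted p = 1.94e-11, with 3.66 ± 0.10 SE, adjusted p = 1.75e-16 in MATalpha and 0.36 ± 0.12 SE, adjusted p = 0.0243 in MATa. The MATa effect lost its call without replicate 1 of tup1 MATa or replicate 1 of WT MATa (adjusted p = 0.0725 to 0.114) and under upper-quartile scaling (adjusted p = 0.0959). SNO1, the neighbouring gene of the same step, had 72.7, 57.4 and 59.7 CPM in tup1 MATalpha, against 0.295, 0.280 and 0.742 in WT MATalpha, and 2.86, 2.94 and 4.56 in tup1 MATa, against 0.358, 0.879 and 0 in WT MATa. Its interaction of 4.19 ± 0.83 SE, adjusted p = 0.0029 was not called without replicate 2 of WT MATa (adjusted p = 0.112). PUG1, a membrane protein that transports porphyrins, had 28.6, 28.9 and 30.3 CPM in tup1 MATalpha, against 1.97, 2.804 and 2.23 in WT MATalpha, and 5.17, 6.54 and 5.21 in tup1 MATa, against 3.35, 3.64 and 3.05 in WT MATa and an interaction of 2.93 ± 0.26 SE, adjusted p = 1.94e-07. CPP3 had an interaction of 2.75 ± 0.66 SE, adjusted p = 0.00455, which was not called without replicate 1 of WT MATa (adjusted p = 0.0665). HAL1, a salt-tolerance gene, had an interaction of 1.56 ± 0.16 SE, adjusted p = 8.75e-07. MAL12, a maltase that shares reads with MAL32 and is uncertain between them, rose by 8.07 in MATalpha and 5.72 in MATa, an interaction of 2.35 ± 0.59 SE, adjusted p = 0.00364. With 1 CPM added, which damps changes at low levels, its rises were 6.04 to 6.10 in MATalpha and 4.52 to 4.80 in MATa. The size of its interaction therefore depends on low levels.

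In some gene groups that Tup1 is known to repress, genes rose in both types. The share with an interaction lay under the 23.9% over all genes. A rise was called in 32.0% of all genes in MATalpha and in 24.7% in MATa. All 8 anaerobic mannoprotein genes rose in both types, with median effects of 4.15 in MATalpha and 3.98 in MATa, and 0 had an interaction (median 0.22). Of 7 Rfx1-regulated DNA damage genes 5 rose in both, with medians of 1.99 and 2.01, and 0 had an interaction (median 0.09). In lists of 8 and 7 genes, 0 calls say little against a share of 23.9%. Of 30 glucose-repressed genes 28 rose in MATalpha and 24 in MATa, and 4 had a positive interaction. That share of 13.3% is close to the 12.4% of all genes with a positive one. The count ran from 1 without WT MATalpha replicate 1 to 7 with DESeq2. Of 5 flocculin genes all rose in both types and 1, FLO10, had an interaction (0.81 ± 0.12 SE, adjusted p = 6.84e-05). That is 20%, close to the 23.9% over all genes. Osmotic genes and hexose transporters, most of which rose in each type, had a larger share, 33.3% in each list. The osmotic list had 4 positive and 0 negative interactions among 12 genes, and the transporters 4 and 2 among 18. FLO1, FLO5 and FLO9 are near-identical and share reads. A missing interaction call does not show that the effects were equal.

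**Figure D5:**
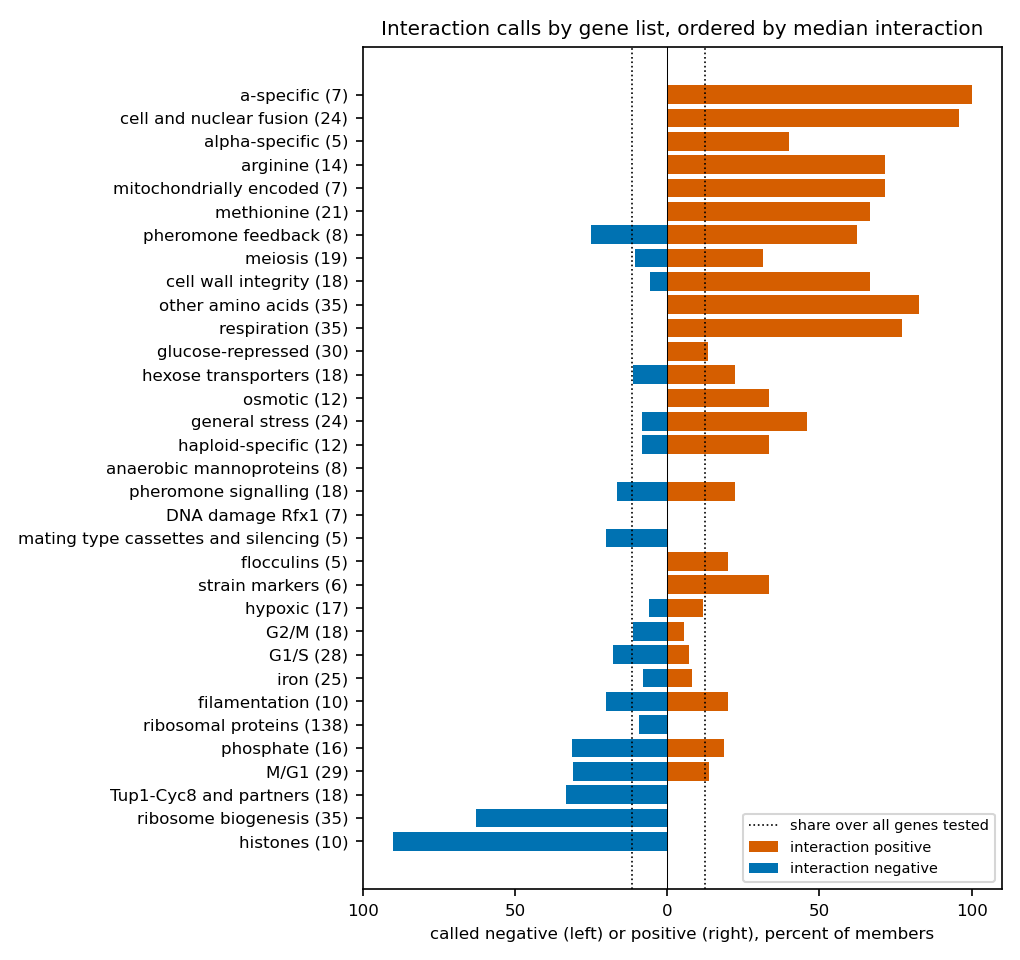
For each gene list the bars give the percent of tested members with a positive and a negative interaction, with dotted lines at the shares over all genes, 12.4% and 11.5%. The a-specific, fusion and amino acid lists stand far past the line on the positive side, histones and ribosome biogenesis on the negative side, and the anaerobic mannoprotein and Rfx1 lists have no bar.

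Histone genes fell in MATalpha. All 10 fell there and 4 fell in MATa. Of the 10, 9 had a negative interaction, 0 a positive one, and the median was −0.54. The count ran from 6 with RLE scaling to 10 with upper-quartile scaling. Among all genes tested 31.0% fell in MATalpha, 16.7% fell in MATa and 11.5% had a negative interaction. HHF1, an H4 gene, had 96.7, 116 and 120.2 CPM in tup1 MATalpha, against 222, 230.4 and 224 in WT MATalpha, and 159.8, 177 and 202 in tup1 MATa, against 211, 188 and 189.6 in WT MATa. The tup1 MATalpha libraries were below all others. The interaction was −0.89 ± 0.12 SE, adjusted p = 3.13e-05, with −1.02 ± 0.09 SE, adjusted p = 6.01e-09 in MATalpha and −0.13 ± 0.08 SE, adjusted p = 0.234 in MATa. HTZ1, the H2A variant, and HTB2, an H2B gene, had interactions of −0.70 ± 0.11 SE, adjusted p = 0.000192 and −0.91 ± 0.22 SE, adjusted p = 0.0086. HHF1 and HHF2, which encode the same protein, and the other core histone pairs are uncertain between copies. Ribosome biogenesis genes had a similar shape. All 35 fell in MATalpha (median effect −0.52) and 17 in MATa (median −0.18), and 22 had a negative and 0 a positive interaction (median −0.37). BRX1 and NSA2, factors of the large subunit, fell in MATalpha only, with interactions of −0.52 ± 0.11 SE, adjusted p = 0.00154 and −0.51 ± 0.12 SE, adjusted p = 0.00451, and with upper-quartile scaling BRX1 was also called lower in MATa (−0.22, adjusted p = 0.0302). The ribosomal protein list of 138 genes was picked by gene name and also holds RPP1, which is not a ribosomal protein gene. Of the 138, 103 fell in MATalpha and 64 in MATa, and 13 had a negative interaction (9.42%, under the 11.5% over all genes). Without tup1 MATa replicate 1 ribosomal proteins had 18 positive and 17 negative calls, and without tup1 MATalpha replicate 3 33 negative ones, so that list gives no stable count.

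Other genes lowered in MATalpha only included LSM3, of the Lsm complexes in RNA processing (interaction −1.06 ± 0.25 SE, adjusted p = 0.00491), HMS2, which resembles heat shock factors (interaction −0.94 ± 0.15 SE, adjusted p = 0.000123), and RRT5. The MATa effect of LSM3 (0.25) was called higher without replicate 1 of tup1 MATa (adjusted p = 0.0164), which makes its shape opposite there. RRT5 had an interaction of −1.64 ± 0.54 SE, adjusted p = 0.0239, not called without replicate 1 or 3 of tup1 MATalpha, replicate 1 of WT MATalpha or replicate 2 of tup1 MATa (adjusted p = 0.051 to 0.104). Lower in both and more so in MATalpha were SNF11, a subunit of the SWI/SNF remodeller (interaction −0.92 ± 0.17 SE, adjusted p = 0.000711), and PHM6, a phosphate-regulated gene (interaction −0.87 ± 0.17 SE, adjusted p = 0.00101). Among 16 phosphate genes 3 were positive and 5 negative (median −0.15), 50% called against 23.9% over all genes. PHO5, the secreted acid phosphatase, rose in MATalpha (0.84 ± 0.14 SE, adjusted p = 0.000105), with an interaction of 1.18 ± 0.20 SE, adjusted p = 0.000676. Its MATa effect of −0.34 was called lower without replicate 2 or 3 of tup1 MATalpha (adjusted p = 0.00455 to 0.0365) and with upper-quartile scaling (−0.44, adjusted p = 0.0133), which makes its shape opposite in those settings.

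The genes that rose in MATa and fell in MATalpha were fewer and their differences smaller. BUD9 (YGR041W, chromosome VII 577487 to 579130), a landmark of bud site selection, had 45.4, 67.4 and 48.5 CPM in tup1 MATalpha, against 83.8, 86.1 and 86.5 in WT MATalpha, and 95, 113 and 98.6 in tup1 MATa, against 76.8, 74.5 and 84.0 in WT MATa. The tup1 MATa libraries exceeded all others, and the tup1 MATalpha libraries lay below all others. The interaction was −1.04 ± 0.15 SE, adjusted p = 0.000109, with −0.66 ± 0.11 SE, adjusted p = 6.04e-05 in MATalpha and 0.38 ± 0.10 SE, adjusted p = 0.00767 in MATa. UNG1, uracil-DNA glycosylase, had an interaction of −0.82 ± 0.17 SE, adjusted p = 0.00143, and TYE7, an activator of glycolytic genes, −0.70 ± 0.15 SE, adjusted p = 0.00177. ATF1, an alcohol acetyltransferase, had an interaction of −0.72 ± 0.12 SE, adjusted p = 0.000308, but its MATalpha fall was not called without replicate 1 or 2 of tup1 MATalpha or replicate 2 of WT MATalpha (adjusted p = 0.0956 to 0.168). EGT2, which acts in cell separation, had one of −0.69 ± 0.13 SE, adjusted p = 0.000704, but its MATa rise was not called without replicate 2 of tup1 MATa (adjusted p = 0.065). With upper-quartile scaling the MATa rises of TYE7 (adjusted p = 0.0503) and EGT2 (adjusted p = 0.0516) were not called. BUD9 and EGT2 belong to a list of M/G1 genes, in which 4 of 29 had a positive and 9 a negative interaction (median −0.23). Over all genes 12.4% were positive and 11.5% negative, so the positive share was near that of all genes. In that list 9 rose and 12 fell in MATalpha, and 19 rose and 2 fell in MATa. Of all genes 32.0% rose and 31.0% fell in MATalpha, and 24.7% rose and 16.7% fell in MATa.

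Larger increases in MATa than in MATalpha were led by HXT5, a hexose transporter, with an interaction of −1.42 ± 0.48 SE, adjusted p = 0.039. It was not called without replicate 2 of tup1 MATalpha, replicate 1 or 3 of WT MATalpha, replicate 2 or 3 of tup1 MATa or replicate 1, 2 or 3 of WT MATa (adjusted p = 0.0625 to 0.097). BSC1 and PRM7, which lie close together on chromosome IV, had interactions of −1.32 ± 0.25 SE, adjusted p = 0.0015 and −1.21 ± 0.29 SE, adjusted p = 0.0088. BSC1 had 132, 109 and 153 CPM in tup1 MATalpha, against 30.0, 19.6 and 31.9 in WT MATalpha, and 104, 108 and 119 in tup1 MATa, against 7.89, 9.17 and 10.7 in WT MATa. The tup1 groups overlapped each other, and WT MATalpha was above WT MATa without overlap. SET6 overlaps ATG29 and is uncertain; its interaction of −1.18 ± 0.36 SE, adjusted p = 0.019 was not called without replicate 1 of WT MATalpha or replicate 3 of WT MATa (adjusted p = 0.0553 to 0.104). Of 18 genes for Tup1-Cyc8 and its DNA-binding partners, 0 had a positive and 6 a negative interaction (median −0.29), and 12 were negative without tup1 MATa replicate 1. The 6 made up 33.3%, against 11.5% negative over all genes. In MATa 16 of the 18 rose, against 24.7% over all genes. In MATalpha 11 rose and 2 fell, against 32.0% and 31.0%. SOK2, a repressor of filamentous growth, was among them (interaction −0.66 ± 0.16 SE, adjusted p = 0.00622), and so was MIG3, a repressor related to the glucose repressor Mig1, which rose in MATa only (0.94 ± 0.11 SE, adjusted p = 8.52e-07, interaction −0.88 ± 0.16 SE, adjusted p = 0.00053). TUP1 itself had 489, 509.8 and 438 CPM in tup1 MATalpha, against 446, 435 and 459 in WT MATalpha, and 477, 580.0 and 522 in tup1 MATa, against 382, 381 and 397 in WT MATa. The tup1 MATa libraries lay above both WT groups, and the tup1 MATalpha range overlapped WT MATalpha. It rose in MATa only (0.44 ± 0.08 SE, adjusted p = 0.000119), with an interaction of −0.34 ± 0.11 SE, adjusted p = 0.0283 that was not called without replicate 3 of tup1 MATalpha, replicate 1 or 3 of WT MATalpha, replicate 2 of tup1 MATa or replicate 1 or 2 of WT MATa (adjusted p = 0.0576 to 0.0838). CYC8 had an interaction of −0.42 ± 0.11 SE, adjusted p = 0.00957, with a MATa rise (0.28) that lost its call without replicate 2 of tup1 MATa (adjusted p = 0.0538) and under upper-quartile scaling (adjusted p = 0.0689). Its MATalpha effect of −0.14 was called lower without replicate 1 of tup1 MATalpha or replicate 1 of tup1 MATa (adjusted p = 0.0427 to 0.0474) and with upper-quartile scaling (−0.29, adjusted p = 0.00409).

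Among the remaining MATa-only rises, LDB7, a subunit of the RSC remodeller, had an interaction of −0.74 ± 0.14 SE, adjusted p = 0.00101 and HXT1, the low-affinity hexose transporter, −0.76 ± 0.19 SE, adjusted p = 0.0109. With upper-quartile scaling both were also called lower in MATalpha (LDB7 −0.35, adjusted p = 0.00625, and HXT1 −0.40, adjusted p = 0.0135), and the MATa rise of HXT1 was not called without replicate 1 of tup1 MATa (adjusted p = 0.0513). CRS5, a metallothionein, had an interaction of −0.83 ± 0.26 SE, adjusted p = 0.0267, not called by DESeq2 (adjusted p = 0.0507) or without replicate 1 or 2 of tup1 MATalpha, replicate 2 or 3 of WT MATalpha, replicate 3 of tup1 MATa or replicate 2 of WT MATa (adjusted p = 0.0525 to 0.0747). COS8 (YHL048W, chromosome VIII 6401 to 7546) fell in MATa only. It had 83.7, 70.0 and 66.5 CPM in tup1 MATalpha, against 76.0, 76.1 and 74.2 in WT MATalpha, and 22.9, 17.3 and 16.9 in tup1 MATa, against 84.6, 79.4 and 73.4 in WT MATa. The tup1 MATa libraries lay far below the other 9, which overlapped. The interaction was 2.01 ± 0.15 SE, adjusted p = 7.98e-09, with −0.04 ± 0.09 SE, adjusted p = 0.695 in MATalpha and −2.05 ± 0.11 SE, adjusted p = 5.52e-12 in MATa. COS8 belongs to a family with similar copies near chromosome ends, so reads may be split between copies. FYV5 overlaps ADF1 and is uncertain, with an interaction of 1.01 ± 0.28 SE, adjusted p = 0.0123 and a MATa fall that was not called without replicate 2 or 3 of tup1 MATa or replicate 1 or 2 of WT MATa (adjusted p = 0.0502 to 0.0949). BNA4, of NAD synthesis, fell in both types and more in MATa (interaction 0.64 ± 0.16 SE, adjusted p = 0.00828).

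Meiotic genes, which haploid cells normally keep low, had 6 positive and 2 negative interactions among 19 tested (median 0.66). That is 42.1% called against 23.9% over all genes, with a negative share near the 11.5% over all genes. IME1, the master activator of meiosis, had 18.3, 20.6 and 19.9 CPM in tup1 MATalpha, against 2.06, 3.08 and 2.67 in WT MATalpha, and 6.81, 9.16 and 8.47 in tup1 MATa, against 2.39, 3.14 and 3.19 in WT MATa. Both tup1 groups were above WT, with tup1 MATalpha the highest. The interaction was 1.46 ± 0.29 SE, adjusted p = 0.00107. SPO11, which makes the breaks of meiotic recombination, rose in MATalpha only (1.35 ± 0.27 SE, adjusted p = 0.000164), with an interaction of 1.82 ± 0.43 SE, adjusted p = 0.00432. The summed level of the 4 meiotic markers was 41.6 to 42.8 CPM in tup1 MATalpha and 10.5 to 11.7 CPM in WT MATalpha, and 14.2 to 22.4 CPM in tup1 MATa and 10.4 to 12.8 CPM in WT MATa. In tup1 MATalpha the a-cell marker HMRA1 was at 0 counts, while the other a-cell markers were expressed. The alpha-cell markers summed to 48.0 to 52.6 CPM in tup1 MATa and 42.1 to 47.6 CPM in WT MATa. SAG1 made up most of that sum, with 45.9, 50.8 and 49.4 CPM in tup1 MATa. Whether any library held a share of other cells was not tested.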

How the data were processed

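RNA was measured in 12 libraries. The authors deposited raw read counts per gene as 1 table with a column per library, and 0 columns were left unused. The tools named per the submitters' processing notes are featureCounts 1.6.3 (Subread), STAR 2.7.3 and cutadapt 2.8, and the builds R64 and sacCer3. Not given in the sources used here are the strand setting, which decides whether antisense and overlapping genes are separated, and how multi-mapping reads were treated. Genes with near-identical copies, overlapping genes and transfer RNAs are therefore uncertain.

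Identifiers were matched to the RefSeq R64 gene table, and 5924 of 6219 matched. Of the 295 unmatched, 276 were transfer RNAs. The deposited counts were tested in edgeR 4.0.16 (R 4.3.3). Low-count genes were removed with filterByExpr by group (minimum count 10), which left 5654. Libraries were scaled by TMM. A robust quasi-likelihood fit of 4 group means with 8 residual degrees of freedom gave 3 two-sided contrasts, the tup1 effect in each mating type and their difference, with Benjamini-Hochberg adjustment over all 5654 genes and a threshold of 0.05. The differences between mating types within tup1 and within WT came from that fit too. Every adjusted p of a gene comes from this test unless another tool is named. Standard errors (SE) are on the log2 scale. Where a group had 3 or fewer counts, a ratio of scaled counts with its exact 95% interval replaces the fitted value, and like the floor of 3 counts it covers counting error only.

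The 33 gene lists (694 members matched) and the rules were chosen with earlier results of these data known. Some genes belong to several lists. Named genes are the 5 with the largest interaction in each shape and direction, up to 4 per list, the 3 low-count genes with the highest level, and 16 fixed mating and Tup1 genes. Unstable list genes among them are not described. Alternatives were RLE and upper-quartile scaling, other count filters, DESeq2 1.42.0, limma 3.58.1 with sample weights, no robust dispersion, a replicate block, each library left out, each mating type fitted alone, a 1.5-fold test, and other definitions of shape. The scripts were tested on simulated data.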

Additional observations from a re-analysis of the deposited data

Results flagged for a closer look

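The results below were marked because the effect of tup1 differed between the mating types by the test of the difference itself. In all, 1349 genes met that criterion. Values are the log2 difference of the tup1 effects, MATalpha minus MATa, and their adjusted p-values come from edgeR's quasi-likelihood test with Benjamini-Hochberg adjustment.

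Among mating genes the interaction was 9.67 for AGA2, 9.14 for MFA2, 7.76 for BAR1, 6.76 for STE2 and 4.48 for STE6, all a-specific, and 2.79 for SAG1 and 1.53 for STE3, both alpha-specific. For genes of fusion it was 7.44 in PRM3, 7.26 in PRM1, 7.17 in PRM2, 5.29 in FUS1 and 8.59 in FIG1. It was 1.14 for FAR1 and 0.58 for GPA1, genes of signalling. HO stood at −0.97, TUP1 at −0.34 and CYC8 at −0.42.

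In amino acid and sulfur metabolism the interaction was 4.64 for ARG1, 2.55 for ARG3, 1.05 for ARG8, 1.63 for SUL2, 1.09 for MET5, 0.71 for MET14, 0.67 for LEU2, 0.64 for LEU1 and 0.59 for AGP3. DIP5 stood at −2.24, CHA1 at −0.98 and OPT2 at −0.82. BNA4, of NAD synthesis, stood at 0.64, and SNO1 and SNZ1, of vitamin B6 synthesis, at 4.19 and 3.30.

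Of the other genes more upward in MATalpha, PUG1 had 2.93, CPP3 2.75, COS8 2.01 and FYV5 1.01. Of those more downward in MATalpha, RRT5 had −1.64, LSM3 −1.06, HMS2 −0.94, HTB2 −0.91, UTR2 −1.12, SNF11 −0.92 and PHM6 −0.87. Opposite effects with a fall in MATalpha gave −1.04 for BUD9, −0.82 for UNG1, −0.72 for ATF1, −0.70 for TYE7 and −0.69 for EGT2. Larger rises in MATa gave −1.42 for HXT5, −1.32 for BSC1, −1.21 for PRM7, −1.18 for SET6 and −0.96 for CTT1, and rises in MATa only gave −0.88 for MIG3, −0.83 for CRS5, −0.76 for HXT1 and −0.74 for LDB7.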

How the results depend on the processing

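No named gene reversed its sign in the alternatives run for single genes, 21 for each and 20 for RRT5, SPR3, SPO11 and SPS1. Of 137 named genes with an interaction, 45 kept the call in every alternative run and 92 lost it in at least 1, most often in the 1.5-fold test. Shared with the 1349 genes were 1166 of the 1223 called by DESeq2, 1279 of 1320 with RLE scaling, 1278 of 1494 with upper-quartile scaling, 1324 of 1915 with limma sample weights, 1294 of 1309 with no count filter and 1295 of 1321 at a minimum count of 50. Upper-quartile scaling moved the median tup1 effect to −0.18 in MATalpha and −0.12 in MATa, against −0.03 and −0.01, so small falls became calls there and small rises lost them.

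Leaving out 1 library gave 570 to 962 positive and 480 to 998 negative interactions, 155 to 183 and 13 to 31 of them at least 2-fold. In MATalpha 1671 to 1911 genes rose and 1519 to 1873 fell, and in MATa 1243 to 1469 rose and 617 to 1034 fell. MATalpha-only genes numbered 506 to 947, both and more in MATalpha 313 to 493, opposite 57 to 153, both and more in MATa 37 to 121, MATa only 70 to 219, and neither effect 5 to 27. The highest shape counts came without tup1 MATa replicate 1.

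The 1.5-fold test gave 139 positive and 8 negative interactions, 7 of the negative ones at least 2-fold. A minimum count of 50 left 11 negative ones of at least 2-fold. With limma sample weights 26 negative genes were at least 2-fold, 150 were opposite, 119 larger in MATa, 243 MATa only and 30 had neither effect. With upper-quartile scaling 1778 genes fell in MATa, and 17 had neither effect. Defining a change in one type only by a 95% interval of the other effect within 1.5-fold gave 165 MATa-only genes. Over differences of at least 2-fold the shapes held 94 (MATalpha only), 58 (both, more in MATalpha), 26 (opposite), 5 (both, more in MATa), 8 (MATa only) and 0 (neither), and at an adjusted p of 0.01 they held 412, 230, 41, 22, 59 and 6 in the same order. These narrow by construction. For the other settings the cause was not tested.

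Replicate numbers did not pair the samples. Deviations of same-numbered libraries from their group means correlated at −0.28 to 0.12 over 18 pairs, 1 of them over 0.1, and those of different numbers at −0.27 to 0.26 over 36 pairs, and 4 libraries correlated best with one of their own number. A replicate block gave 1269 interactions, 1240 of them shared.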

Other observations

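Some differences lay outside the gene lists, in features that are uncertain in these counts; they were picked after their values were seen. The transfer RNA gene tA(AGC)P had 332 counts over tup1 MATalpha and 1 over WT MATalpha, a scaled ratio of 432 (exact 95% interval 77.0 to 17121, counting error only), and 6 over tup1 MATa against 9 over WT MATa. tQ(UUG)D2 had 308 counts over tup1 MATalpha and 3 over WT MATalpha, a ratio of 134 (45.3 to 652), and 1 over tup1 MATa against 5 over WT MATa. Transfer RNA genes made up 10 of the 1349 genes with an interaction, and 25 of the 1349 overlap another gene. The matching numbers over all genes tested are not given here, so neither count describes these features as a class.

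YNL146C-A and YNL146W, annotated beside MFA2, differed between the mating types in WT and not in tup1. MATalpha over MATa was 0.57 in tup1 and −3.45 in WT for YNL146C-A, the direction of MFA2, and 0.47 in tup1 and 1.57 in WT for YNL146W, the reverse direction. Their interactions were 4.02 and −1.10.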
